A study of Mus musculus with 43 samples.

Results

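Glycogen is the branched glucose polymer that cells build when glucose is plentiful and break down on demand. Ugp2 makes the sugar donor UDP-glucose, glycogen synthase (Gys1, the form of muscle and most tissues, and Gys2, the form known from liver) extends the chains, and Gbe1 adds the branches. Glycogen phosphorylase (Pygl, the liver form, and Pygm, the muscle form) releases the glucose, after activation by phosphorylase kinase, of which Phkg1 is the catalytic subunit known from muscle. Ppp1r3b, Ppp1r3c and Ppp1r3e are glycogen-targeting subunits that bring protein phosphatase 1 to glycogen, where it activates the synthase and inactivates the phosphorylase. Adipocytes also make glycogen, and the store of brown fat is known to change with feeding and with cold.

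The 10 genes named above were chosen by name from the pathway, with earlier results of these data known. Counts of members set beside the share of all genes are therefore descriptions only. Of these, 9 have a row in each of the 5 expression tables, which list 22622 genes, and all 9 were tested in every comparison. Ppp1r3b is not analysed here. On the mm10 build (GRCm38.p6), Gys1 (gene ID 14936) lies at chr7:45434839-45456617, Gys2 (232493) at chr6:142422612-142473130, Gbe1 (74185) at chr16:70313949-70569720 and Ugp2 (216558) at chr11:21321126-21371267. Pygl (110095) lies at chr12:70190815-70227683, Pygm (19309) at chr19:6384408-6398464, Phkg1 (18682) at chr5:129863431-129879134, Ppp1r3c (53412) at chr19:36731731-36736604 and Ppp1r3e (105651) at chr14:54875597-54877538. The annotated spans of Gys1, Ugp2 and Phkg1 overlap those of Ruvbl2, Vps54 and Sumf2.

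Polyadenylated RNA was sequenced from inguinal white fat, a subcutaneous depot that readily gains beige adipocytes, in 43 mouse samples of 9 groups. Wild-type C57BL/6J mice were taken at P28 (postnatal day 28) from housing at 30 C (n = 4) or 22 C (n = 4). TrkA-flox Th-cre mice at P28 and 22 C (n = 4) were set against the same 4 wild-type libraries at 22 C; Th-cre acts in cells that express tyrosine hydroxylase, such as sympathetic neurons. Bcl6-flox Prx1-cre mice were set against Bcl6-flox mice without the Cre at P25 and 22 C (n = 8 and 7) and at 9 weeks and 4 C (n = 4 and 4); Prx1-cre is active in mesenchyme of the limbs and elsewhere, and Bcl6 is a transcriptional repressor. Both groups of each Bcl6 pair carry the floxed allele, and both adult Bcl6 groups were kept in the cold. Wild-type mice at 9 weeks were kept at 4 C (n = 4) or 22 C (n = 4). The labels do not tie samples to animals, and p-values therefore refer to the variation among these samples, which may be technical.

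Values are normalized counts, compared within a table only. Library totals ran from 4262412 to 5361985 in both P28 tables, 9675800 to 11656939 at P25, 22380482 to 26488234 in the cold Bcl6 table and 7003070 to 8885442 in the adult wild-type table. Adipoq, the adipocyte hormone adiponectin, was at 7811 or more in each library, and Th at 1.39 or less. Bcl6 was at 1517 to 3329 in Prx1-cre and 454 to 1395 in floxed libraries at P25, and at 9624 to 14490 and 1607 to 2529 in adults; a gene total does not show whether the floxed exons are present, so it does not check the genotype. A score of skeletal muscle genes (18 listed, 13 to 15 measured; the mean of log2(value + 1)) ran from 1.28 to 13.69 over the libraries. Floxed replicate 3 at 9 weeks and 4 C holds the highest score, with Acta1, skeletal actin, at 102700.

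Per kilobase of the longest annotated coding transcript, Pygl had the highest median of the 9 genes in each of the 9 groups and Gys1 the second. In wild-type libraries at P28 and 22 C, Pygl ran from 627 to 1268 normalized counts per kilobase, above the 285 to 399 of Gys1. Gys1, Gbe1 (219 to 398) and Ugp2 (249 to 325) overlapped each other there. Gys2 changed its place most between groups (ranks 5 to 9): its median was 14.4 per kilobase at 30 C, rank 9 of 9, against 56.6 at 22 C, rank 6, while in floxed Bcl6 adults in the cold it was 1225, rank 5, between Gbe1 at 1618 and Ppp1r3c at 714. Levels of different tables are not on 1 scale, so only the ranks are set side by side.

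The first comparison concerns warm housing of P28 mice. Gys2 fell at 30 C to 0.256 of its mean level at 22 C, the branching enzyme Gbe1 fell by an amount that only just passed the test, and Pygl was lower in each 30 C library without passing. The other steps showed no call. Gys2 had 35, 41.3, 45.3 and 35.2 normalized counts at 30 C, against 125, 190, 123 and 176 at 22 C. The groups do not overlap, and the log2 fold change was -1.92 ± 0.18 (SE; limma adjusted p = 0.0017, n = 4 and 4). Gys1, by contrast, had 906 to 1144 at 30 C and 1048 to 1467 at 22 C, overlapping, with a fold change of -0.27 ± 0.11 (adjusted p = 0.213). Libraries with high Xist (over 1000 normalized counts), the RNA of the inactive X chromosome, were 3 of 4 at 30 C and 2 of 4 at 22 C, and among these the difference of mean log2 value of Gys2 was -1.84. The ratio of Gys2 to Gys1 within a library was 0.0308 to 0.041 at 30 C and 0.0965 to 0.135 at 22 C. In bulk tissue, fewer cells of a type and less RNA per cell cannot be told apart.

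Gbe1 had 571, 699, 590 and 551 normalized counts at 30 C, against 910, 1315, 723 and 1160 at 22 C. The groups do not overlap, and the fold change was -0.74 ± 0.17 (adjusted p = 0.049). The call was lost without any 1 of 7 of the 8 libraries (adjusted p = 0.0738 to 0.142) and was 0.00748 without replicate 3 at 22 C, the library lowest in Gbe1 and Pygl of its group. Pygl had 1305, 1858, 1604 and 1630 at 30 C, against 2810, 3793, 1876 and 3274 at 22 C. Its highest value at 30 C lies just under the lowest at 22 C, and the fold change of -0.84 ± 0.20 missed the threshold (adjusted p = 0.0522), passing without replicate 3 at 22 C (0.00442), with a filter of 50 (0.0417), with quantile normalization (0.0498) and with library weights (0.0124). Ugp2 had a fold change of -0.16 ± 0.09, Phkg1 of -0.03 ± 0.16, Ppp1r3c of 0.17 ± 0.25 and Ppp1r3e of -0.27 ± 0.20, none past the threshold. Pygm had 189, 181, 22.7 and 537 at 30 C, against 51.9, 48.4, 45.0 and 55.4 at 22 C. Here 3 of 4 libraries at 30 C lie above all at 22 C and 1 below, and the fold change was 1.51 ± 0.77 (adjusted p = 0.335).

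Of the 9 members 2 were lower and 0 higher at 30 C. Over all 12283 tested genes 4.45% passed in either direction, 3.17% as lower and 1.29% as higher. The groups did not overlap for 3 of 9 members, all lower at 30 C, against 12.9% of all genes (7.72% below and 5.23% above). The median fold change of the members was -0.27, against 0.01 over all tested genes. Alongside these, the macrophage score was 8.81 to 9.05 at 30 C and 8.11 to 8.69 at 22 C, the beige and brown adipocyte score was 6.58 to 7.52 and 8.25 to 8.83, and the muscle score was 4.28 to 10.05 and 4.75 to 5.71. The adipocyte score was 11.86 to 12.16 and 11.79 to 12.17. The part of macrophage content in these results was not tested. With the muscle score as a covariate Gys2 kept a fold change of -1.73 (adjusted p = 0.0197), and Gbe1 had -0.66 (adjusted p = 0.235).

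**Figure D1:**
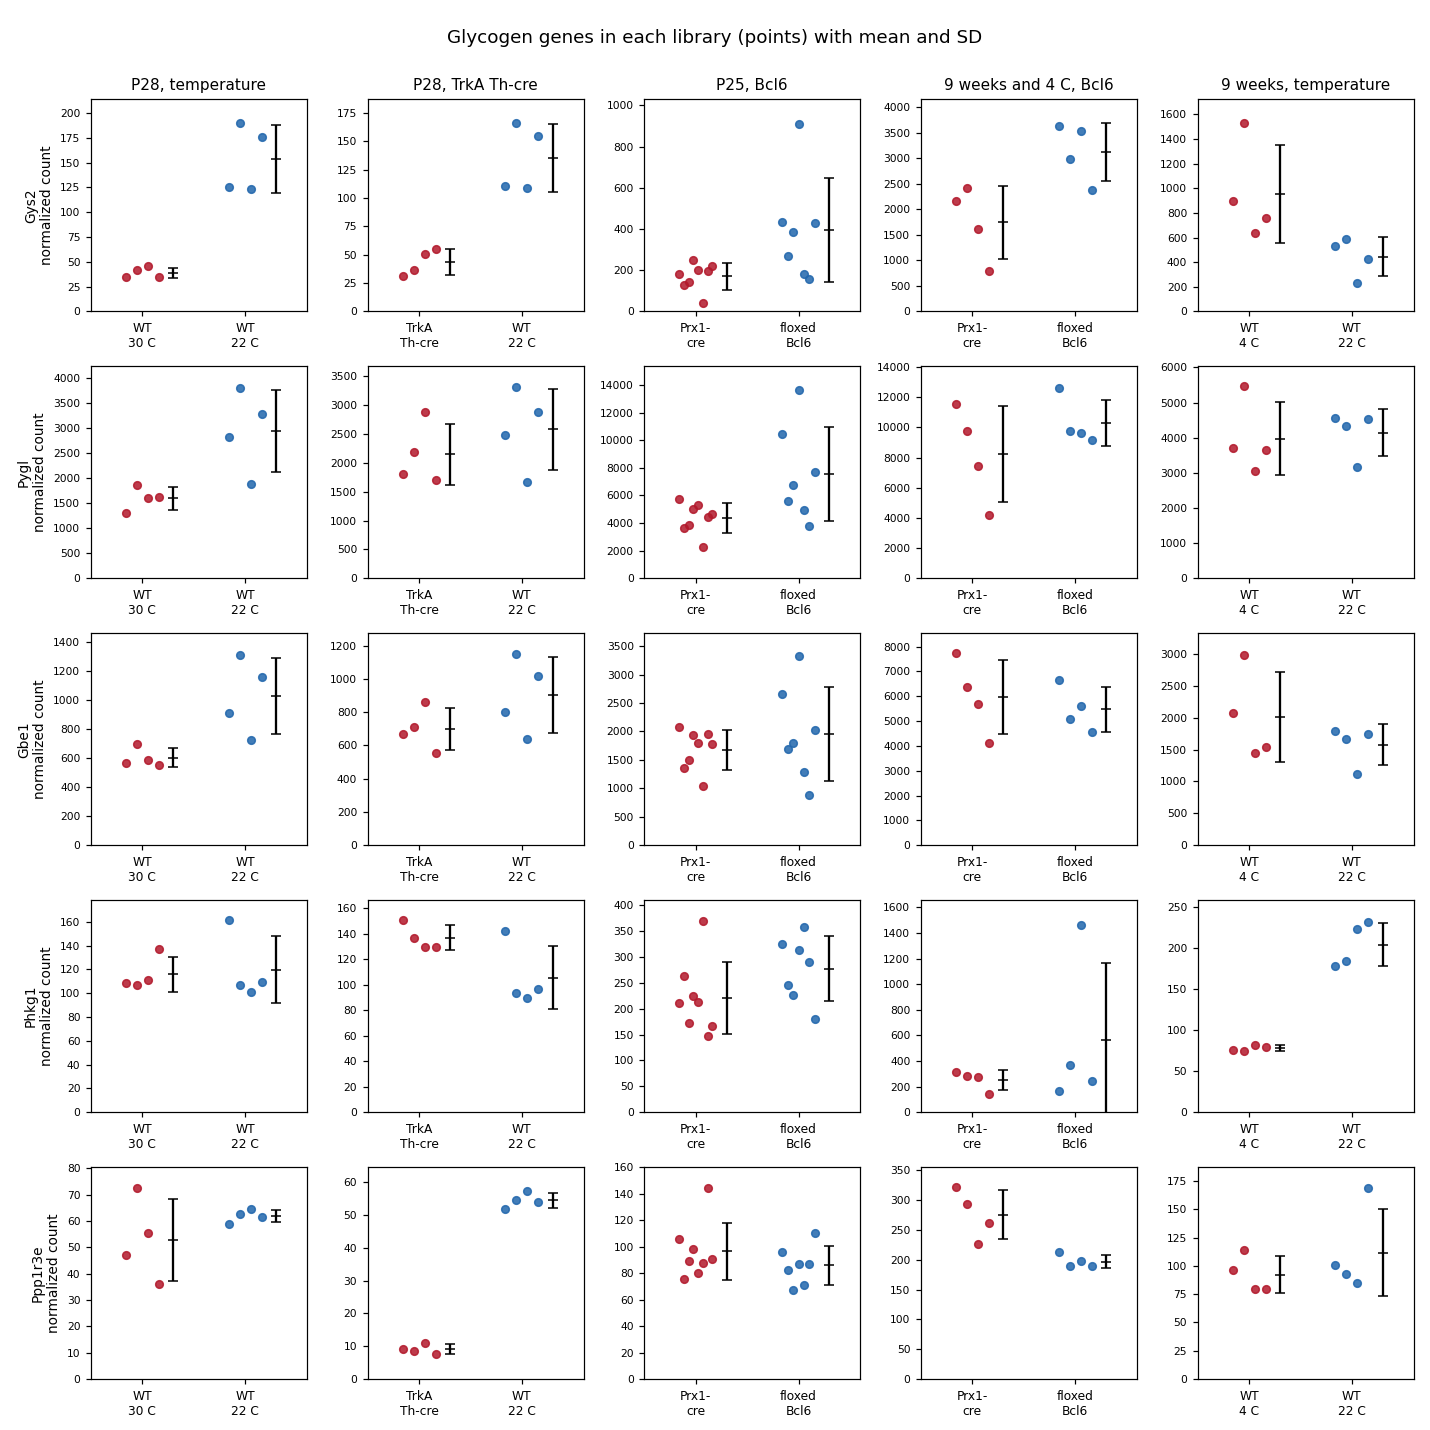
Normalized counts (y axis, linear, from 0) of Gys2, Pygl, Gbe1, Phkg1 and Ppp1r3e in each library of the 5 comparisons; red points are the first-named group, blue points the group it is set against, and the black bar is the mean with its SD, cut at 0. Gys2 at 30 C lies at 35 to 45.3, below all 4 libraries at 22 C, and Phkg1 at 4 C lies at 74.4 to 82.5, below all 4 adult libraries at 22 C.

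The upstream sequences of Gbe1 and Pygl are printed because these 2 genes vary together across libraries, and that of Phkg1 because its level differed most in the adult cold. Each is the 250 bases before the RefSeq start on GRCm38.p6, 5′ to 3′ on the strand of the gene, with matches to CANNTG (the E-box core) and GGGCGG (the GC box) in capitals, on either strand.
Gbe1, chr16:70313699-70313948, plus strand: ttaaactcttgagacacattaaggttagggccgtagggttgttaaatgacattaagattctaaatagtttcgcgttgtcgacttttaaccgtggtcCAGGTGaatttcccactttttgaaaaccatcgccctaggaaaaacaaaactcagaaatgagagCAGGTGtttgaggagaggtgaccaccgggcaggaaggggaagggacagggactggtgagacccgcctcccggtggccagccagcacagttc
Pygl, chr12:70227684-70227933, minus strand: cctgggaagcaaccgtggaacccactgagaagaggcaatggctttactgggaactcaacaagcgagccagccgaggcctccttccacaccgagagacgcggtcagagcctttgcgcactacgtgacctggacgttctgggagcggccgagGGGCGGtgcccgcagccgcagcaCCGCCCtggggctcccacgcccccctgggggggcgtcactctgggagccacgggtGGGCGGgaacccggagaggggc
Phkg1, chr5:129879089-129879338, minus strand: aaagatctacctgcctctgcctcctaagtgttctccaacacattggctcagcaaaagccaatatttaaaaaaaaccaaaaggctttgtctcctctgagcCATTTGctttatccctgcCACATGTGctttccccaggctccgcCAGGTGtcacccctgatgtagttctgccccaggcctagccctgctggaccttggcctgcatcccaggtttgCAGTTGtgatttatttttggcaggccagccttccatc
RefSeq windows were found for 7 of the 10 genes, and Gys2, Ppp1r3b and Ppp1r3e were not searched. For Phkg1 the start used lies inside the annotated span given above, so the last bases of its window lie within that span. CANNTG has 2 matches before Gbe1, 0 before Pygl and 5 before Phkg1, of which 2 overlap each other, and 66.2% of 32851 windows of the same length hold at least 1. GGGCGG has 3 matches before Pygl and 0 before Gbe1 and Phkg1, and 32.7% of windows hold it. The E-box CACGTG, a form of CANNTG held by 6.02% of windows, was found before Ppp1r3c, starting 104 bases before the start. It was found before no other of the 7 genes with a window. TTCNNNGAA (7.02% of windows), TGACGTCA (1.55%) and the consensus motif of MEF2 (0.103%) had no match before any of the 7 genes.

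The second comparison sets TrkA-flox Th-cre against wild-type C57BL/6J at P28. The floxed allele, the Cre, the loss of TrkA and any difference of background go together here and cannot be told apart. Gys2 and Ppp1r3e fell to 0.321 and 0.166 of their wild-type means, and no member rose. These are 2 of 9 members, against 2.66% of 11899 tested genes in either direction, 1.32% as lower and 1.34% as higher; of the 2, Ppp1r3e met the filter on low values through the wild-type group alone, so the count is only a description. The groups did not overlap for 3 of 9, 2 of them below wild type and 1 above, against 11.2% of all genes (5.57% below and 5.63% above), and the members' median fold change was -0.08, against -0.01 over all genes. Gys2 had 31.4, 36.3, 50.4 and 55.2 normalized counts in TrkA-flox Th-cre libraries, against 110, 166, 109 and 155 in wild-type ones. The groups do not overlap (log2 fold change -1.63 ± 0.22, adjusted p = 0.00699, n = 4 and 4). The wild-type libraries are those of the 30 C comparison, so both falls of Gys2 rest on the same 4 libraries.

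Ppp1r3e had 9.17, 8.48, 11.1 and 7.57 normalized counts in TrkA-flox Th-cre libraries, against 52.0, 54.7, 57.4 and 54.1 in wild-type libraries, and the groups lie far apart. The fold change was -2.47 ± 0.21 (adjusted p = 0.000391). Of the 4 TrkA-flox Th-cre values 3 are under the minimum of 10. At 30 C, with the same wild-type libraries, Ppp1r3e had 36.0 to 72.8, overlapping 59.0 to 64.8 at 22 C. Within 1 Mb of Ppp1r3e on either side, 44 other genes were tested and 3 passed, all lower: Dad1, Ajuba and Psmb5. Over all genes 2.66% passed in either direction, 1.32% as lower. In adult Bcl6-flox Prx1-cre 51 genes of this window were tested, with 1 higher and 3 lower, against 14.5% of all genes. Psmb5 passed in both comparisons.

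Phkg1 had 151, 137, 130 and 130 in TrkA-flox Th-cre libraries, against 143, 93.3, 89.5 and 96.5 in wild-type libraries. Only wild-type replicate 1 reaches the TrkA-flox Th-cre values (0.40 ± 0.16, adjusted p = 0.206), and without that library the fold change was 0.55 (adjusted p = 0.0411). Ppp1r3c overlapped, with 139 to 583 and 114 to 234 (0.49 ± 0.40). Neither Pygl (1706 to 2876 in TrkA-flox Th-cre libraries, against 1662 to 3317 in wild-type ones; -0.25 ± 0.22, adjusted p = 0.587) nor Gbe1 (553 to 864 and 641 to 1150; -0.35 ± 0.19, adjusted p = 0.339) passed. Pygm had 223, 72.7, 57.4 and 51.9 in TrkA-flox Th-cre libraries, against 45.8, 42.3, 39.9 and 48.6 in wild-type libraries. Each TrkA-flox Th-cre value is higher, but the fold change of 0.91 ± 0.39 did not pass (adjusted p = 0.241). The muscle score was also higher in each TrkA-flox Th-cre library, at 5.86 to 8.33 against 4.37 to 5.23, as was the macrophage score, at 8.84 to 9.20 against 7.93 to 8.51. With the muscle score as a covariate Pygm had a fold change of -0.38, Gys2 of -1.18 and no longer passed (adjusted p = 0.324), and Ppp1r3e still passed (-2.50, adjusted p = 0.0377). Of 6 hepatocyte markers only albumin (Alb) reached the filter in this table, and its log2 value was 3.91 to 6.91 in TrkA-flox Th-cre and 7.09 to 7.97 among wild-type libraries. The beige and brown adipocyte score was 7.10 to 8.17 and 8.08 to 8.63. The parts of macrophage and hepatocyte content were not tested.

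**Figure D2:**
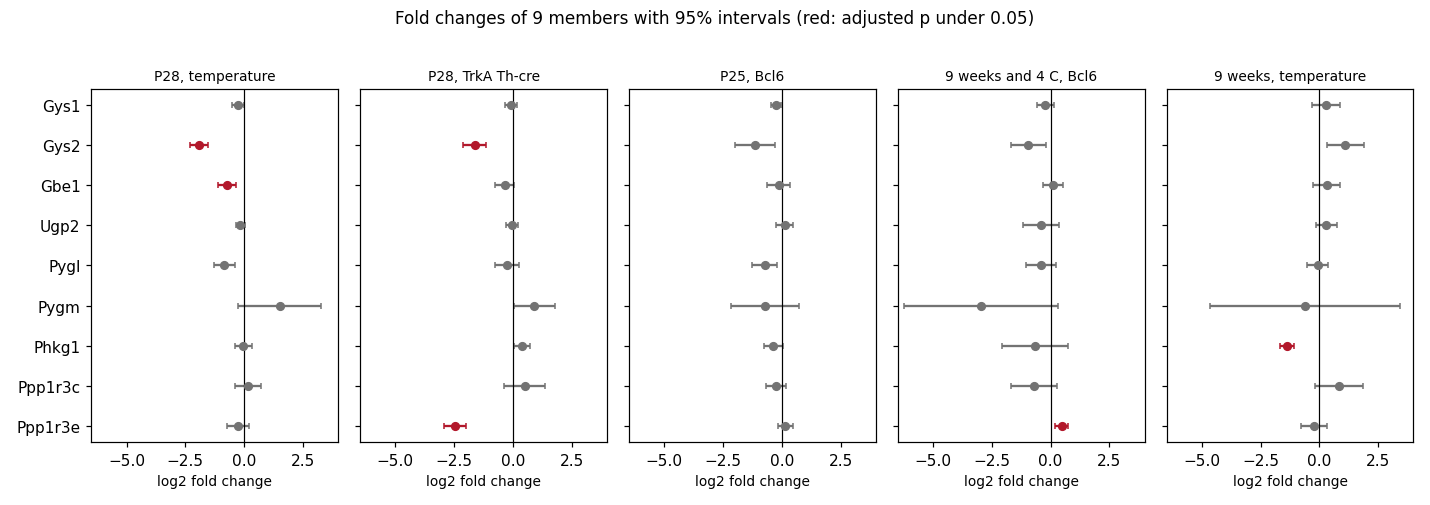
Log2 fold change (x axis) of the 9 members in the 5 comparisons, first-named group over the other, with 95% intervals; red marks adjusted p under 0.05. Gys2 lies left of 0 in both P28 comparisons and both Bcl6 comparisons and right of 0 in the adult cold, where only Phkg1 passed, and Pygm has the widest intervals.

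The third comparison asks what Bcl6-flox Prx1-cre changes at P25. None of the 9 members passed limma's test, against 3.53% of 12738 genes (1.56% higher and 1.97% lower), and 3 had an unadjusted p under 0.05, all with lower values in Prx1-cre: Gys1, Gys2 and Pygl. Of all genes 15.0% had an unadjusted p under 0.05 here. In the other comparisons 4 of 9 members did at 30 C and 4 in TrkA-flox Th-cre (19.4% and 19.2% of all genes), 2 in adult Bcl6-flox Prx1-cre (29.9%) and 2 in the adult cold (23.8%). The groups overlapped for all 9, against 1.3% of genes without overlap (0.652% above and 0.644% below). The median fold change was -0.24, against 0.0039 over all genes. Gys2 had 41.2 to 248 normalized counts with a median of 190 in Prx1-cre libraries, against 159 to 909 with a median of 385 in floxed libraries. Of the 7 floxed values 5, from 267 up, lie above all 8 Prx1-cre values, and the fold change was -1.14 ± 0.39 (adjusted p = 0.146, n = 8 and 7). Pygl had 2253 to 5735 with a median of 4546, against 3793 to 13650 with a median of 6783 (-0.72 ± 0.25, adjusted p = 0.157). Gys1 had 2321 to 3556 with a median of 2775, against 2759 to 3989 with a median of 3331 (-0.24 ± 0.10, adjusted p = 0.216). The other 6 members overlapped broadly: Gbe1 had 1049 to 2074 with a median of 1788, against 883 to 3328 with a median of 1803 (-0.13 ± 0.24), and Ugp2 had 1421 to 2310, against 1155 to 2577 (0.12 ± 0.17). Pygm had the widest span, 67.8 to 2637 in Prx1-cre and 157 to 1030 in floxed libraries. Phkg1, Ppp1r3c and Ppp1r3e had fold changes of -0.35 ± 0.19, -0.24 ± 0.20 and 0.16 ± 0.15. The muscle score was 3.73 to 11.81 in Prx1-cre and 7.80 to 10.94 in floxed libraries, the macrophage score 9.23 to 11.02 and 8.23 to 11.07, and the beige and brown adipocyte score 7.34 to 8.53 and 9.00 to 10.29.

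Xist was high in 4 of 8 libraries with Prx1-cre and in 3 of 7 floxed. Among libraries with low Xist, Gys2 had 128 to 248 in Prx1-cre and 267 to 909 in floxed libraries, without overlap. Among those with high Xist it had 41.2 to 220 and 159 to 430, with overlap. The differences of mean log2 value were -1.40 and -0.74, and the difference between them was not tested.

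The fourth comparison is of these genotypes as adults kept in the cold. Here 1 of 9 members passed, Ppp1r3e, which was higher in Prx1-cre, against 14.5% of 13496 genes in either direction and 9.01% as higher. Ppp1r3e had 323, 293, 226 and 262 normalized counts in Prx1-cre libraries, against 212, 190, 198 and 189 in floxed libraries. The groups do not overlap, as for 22.3% of all genes, 12.2% with Prx1-cre above and 10.1% with it below (0.47 ± 0.13, adjusted p = 0.0392, n = 4 and 4). Without any 1 of 6 of the 8 libraries the call was lost (adjusted p = 0.0667 to 0.104); it stayed without Prx1-cre replicate 3 or floxed replicate 3 (0.0212 and 0.0338). The members' median fold change was -0.41, against -0.02 over all genes.

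Gys2 had 2163, 2411, 1618 and 791 normalized counts in Prx1-cre libraries, against 3621, 2986, 3525 and 2384 in floxed libraries in the cold. Only the second Prx1-cre library reaches the lowest floxed value, and the fold change was -0.94 ± 0.33 (adjusted p = 0.0912). Within a library, the ratio of Gys2 to Gbe1 was 0.193 to 0.378 in Prx1-cre and 0.524 to 0.629 in floxed libraries, without overlap. That of Gys2 to Pygl was 0.187 to 0.246 and 0.26 to 0.366, also without overlap. The ratio of Gys2 to Gys1 did overlap, at 0.117 to 0.302 and 0.282 to 0.416. At P25 the ratio of Gys2 to Gbe1 was 0.039 to 0.128 and 0.143 to 0.273, without overlap, while those to Pygl and Gys1 overlapped. For ratios, here and in the other comparisons, no share over other gene pairs was worked out. Gbe1 itself had 4103 to 7729 and 4547 to 6656 (0.10 ± 0.19, adjusted p = 0.754). Pygl had 4178 to 11540 in Prx1-cre and 9154 to 12580 in floxed libraries (-0.41 ± 0.29, adjusted p = 0.38).

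Floxed replicate 3, the library with the highest muscle score, also holds the highest value of its group for Gys1 (12490), Ugp2 (13160), Pygm (28930), Phkg1 (1460) and Ppp1r3c (5307). With it, the fold changes were -0.22, -0.41, -2.96, -0.67 and -0.70 for these genes in that order; without it they were -0.07, -0.03, -1.40, -0.03 and -0.30, none past the threshold. Those of Gys2, Pygl, Gbe1 and Ppp1r3e were -0.88, -0.44, 0.12 and 0.47 without it. The muscle score was 4.01 to 7.81 in Prx1-cre and 6.78 to 13.69 in floxed libraries, and the macrophage score 10.44 to 11.19 and 9.78 to 10.16. The part of macrophage content was not tested.

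The genotype effects at P25 and at 9 weeks and 4 C were also compared with each other. Of 12487 genes 0 differed by limma estimates at an adjusted p under 0.05, and of the 9 members 0 had an unadjusted p under 0.05; with a normal reference distribution 166 genes and 0 members passed. For Gys2 the fold change at P25 was 0.20 ± 0.51 lower than at 9 weeks (a difference of -0.20), and for Pygl the difference was -0.31 ± 0.38, so the intervals are wide. Age and temperature differ together between the tables and cannot be told apart.

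The fifth comparison asks what 4 C changes in wild-type adults. Phkg1 fell to 0.382 of its mean level at 22 C, the 1 of 9 members that passed, against 4.47% of 12118 genes in either direction and 2.44% as lower and 2.03% as higher. It had 75.8, 74.4, 82.5 and 79.9 normalized counts at 4 C, against 179, 185, 223 and 232 at 22 C. The groups do not overlap and the values at 4 C lie close together; the fold change was -1.37 ± 0.13 (adjusted p = 0.00399, n = 4 and 4). It passed in each of the 18 alternative settings, with adjusted p of 0.0223 at most. Sumf2, whose annotated span overlaps that of Phkg1, had means of 266.5 and 249.1 (0.10 ± 0.10, adjusted p = 0.598). At 30 C and 22 C at P28, Phkg1 had 107 to 138 and 101 to 162.

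Gys2 had 899, 1530, 634 and 759 normalized counts at 4 C, against 534, 586, 231 and 425 at 22 C. Each value at 4 C is higher than each at 22 C, as groups did not overlap for 2 of 9 members, Gys2 and Phkg1, and 17.3% of all genes in either direction (9.16% above and 8.15% below), but the fold change of 1.11 ± 0.35 did not pass (adjusted p = 0.1). It passed with a covariate for Xist (adjusted p = 0.0139) or for the muscle score (0.0189). Between the 2 libraries a group with high Xist it was 634 and 759 at 4 C and 231 and 425 at 22 C, and between the 2 with low Xist 899 and 1530, and 534 and 586, with differences of mean log2 value of 1.15 and 1.07. The ratio of Gys2 to Gys1 was 0.26 to 0.348 at 4 C and 0.132 to 0.187 at 22 C, and that to Pygl 0.207 to 0.28 and 0.0732 to 0.135, both without overlap. Pygl itself had 3065 to 5461 and 3155 to 4552 (-0.08 ± 0.20, adjusted p = 0.848), and Gbe1 1448 to 2985 and 1110 to 1794 (0.31 ± 0.25, adjusted p = 0.503).

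Ppp1r3c had 1343, 1335, 346 and 983 normalized counts at 4 C, against 458, 393, 387 and 854 at 22 C. The lowest value at 4 C lies below all values at 22 C and the others lie above them all. The fold change was 0.84 ± 0.45 (adjusted p = 0.304). Among libraries with low Xist it was 1335 and 1343 at 4 C and 393 and 458 at 22 C; among those with high Xist, 346 and 983, and 387 and 854. The median fold change of the 9 members was 0.29, against 0.02 over all genes. Gys1 (0.29 ± 0.26), Ugp2 (0.29 ± 0.19), Ppp1r3e (-0.24 ± 0.24) and Pygm (-0.63 ± 1.77) did not pass. The beige and brown adipocyte score was 9.39 to 11.42 at 4 C and 6.72 to 8.21 at 22 C, and the macrophage score 8.37 to 9.51 and 8.53 to 10.21. The muscle score was 1.28 to 10.27 at 4 C and 2.10 to 10.95 at 22 C, and the adipocyte score 13.01 to 13.53 and 12.82 to 13.74.

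Over the libraries of all groups together, some members varied with each other. After the group mean of each log2 value was taken off, Pygl and Gbe1 had a Pearson r of 0.94 over the 43 libraries, Gys2 and Pygl of 0.88, and Gys2 and Gbe1 of 0.86. These are descriptions: libraries of a table share their normalization, and no p is given. Each r pools all groups and leans on those with a wide spread. Gys2 minus its group mean ran from -1.87 to 0.69 in Prx1-cre and -1.09 to 1.42 in floxed libraries at P25. At 30 C it ran from -0.15 to 0.21. No r is given for single groups. Gys1 had r of 0.48 with Gys2 and 0.74 with the adipocyte score. Among 11377 genes, those closest to Gys2 were Slc25a35 (0.89), Pygl (0.88), Acss2 (0.87), Pgd (0.87) and Acly (0.86). Acly and Acss2 make acetyl-CoA, and Pgd is an enzyme of the pentose phosphate pathway. Those closest to Pygl were Me1, the malic enzyme (0.95), Gbe1 (0.94), Pdhb, a subunit of pyruvate dehydrogenase (0.94), Acaca, acetyl-CoA carboxylase (0.92), and Pcx, pyruvate carboxylase (0.92).

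Pygm followed skeletal muscle transcripts instead. Its r with the muscle score was 0.96 over the 43 libraries, and the 5 genes closest to it were Ryr1 (0.97), Myoz1, Tnnt3, Mybpc2 and Actn3 (0.95 to 0.96), all components of muscle fibres. It ranged from 13.1 to 1687 normalized counts at 4 C and 39.8 to 1978 at 22 C in adult wild-type libraries, and from 76.7 to 289 in Prx1-cre and 162 to 28930 in floxed adults. Phkg1 and Ppp1r3c had lower r with the muscle score, 0.45 and 0.30, and Gys2 had -0.39. Ucp1, the thermogenic proton carrier, had an r of 0.26 with Gys2 within groups.

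**Figure D3:**
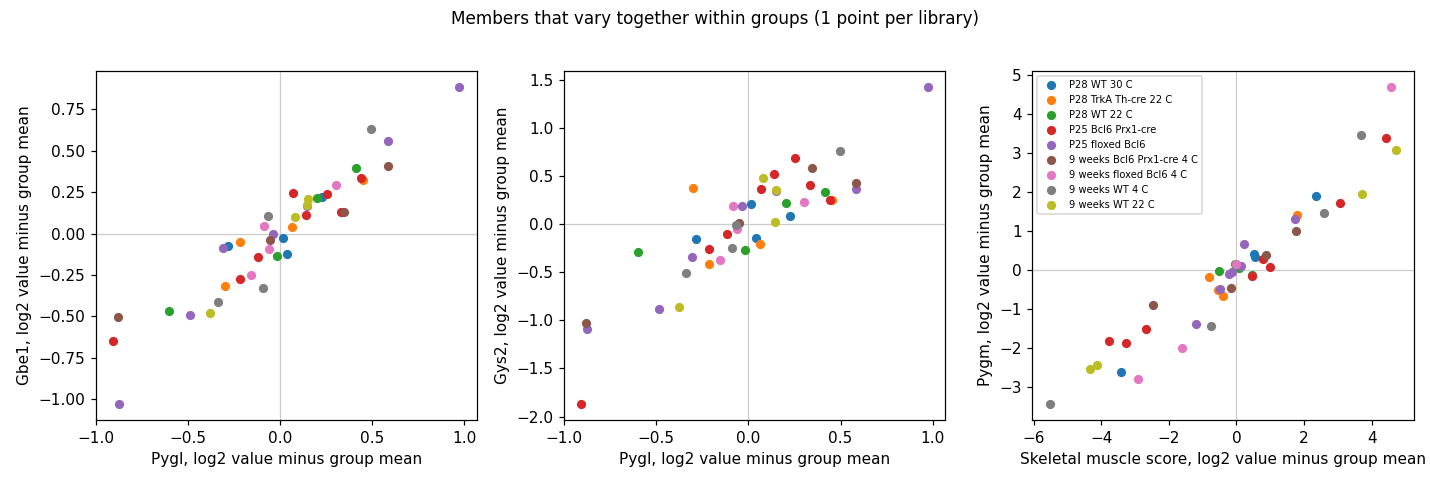
Log2 value minus the group mean for each of the 43 libraries, coloured by group: Gbe1 against Pygl, Gys2 against Pygl, and Pygm against the skeletal muscle score. Gbe1 and Gys2 track Pygl (r of 0.94 and 0.88), and Pygm tracks the muscle score (r of 0.96), with floxed replicate 3 of the cold Bcl6 table at the upper right.

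Among 25 other genes of the pathway, 24 have a row (Pgm2 is not analysed here) and 21 or 22 were tested in each table. At 30 C 1 of 21 passed, near the 4.45% of all genes: Stbd1, which binds glycogen and ties it to membranes, had 125, 81.4, 108 and 106 normalized counts at 30 C, against 56.4, 41.5, 39.4 and 37.3 at 22 C (1.25 ± 0.18, adjusted p = 0.00785). The groups do not overlap, and the direction is opposite to that of Gys2 and Gbe1. With the muscle score as a covariate its adjusted p was 0.0616. In TrkA-flox Th-cre and at P25 0 of 21 passed, among them glycogenin (Gyg), the primer of glycogen.

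In adults in the cold, 4 of 22 fell in Bcl6-flox Prx1-cre and 0 rose. Over all 13496 tested genes 14.5% passed in either direction, 5.46% as lower and 9.01% as higher. Ppp1cb, a catalytic subunit of protein phosphatase 1, had 5061, 4984, 5026 and 5045 in Prx1-cre libraries, against 6757, 6102, 6820 and 6774 in floxed libraries (-0.39 ± 0.06, adjusted p = 0.00425). Phkb, a regulatory subunit of phosphorylase kinase, had 1834 to 2004 and 2372 to 3504 (-0.53 ± 0.11, adjusted p = 0.0177). Ppp1r1a, an inhibitor of protein phosphatase 1, had 3047 to 4363 and 5329 to 8685 (-0.72 ± 0.17, adjusted p = 0.0287), and Gsk3a, a kinase that inactivates glycogen synthase, had 2714 to 3406 and 3453 to 4451 (-0.38 ± 0.10, adjusted p = 0.04). None of the 4 overlapped between the groups. Neither did Ppp1r3a, with 1.01 to 12.8 in Prx1-cre and 14.3 to 1320 in floxed libraries, which did not pass (limma adjusted p = 0.108). Ppp1r3a met the filter on low values through the floxed group alone, so its separation is only a description. Over all genes 22.3% did not overlap, 10.1% with Prx1-cre below and 12.2% with it above. The calls of Ppp1r1a and Gsk3a were each lost without any 1 of 5 libraries (adjusted p = 0.0548 to 0.0758 and 0.0768 to 0.112), and that of Phkb without Prx1-cre replicate 1 (0.0563). With the muscle score as a covariate Phkb, Ppp1r1a and Gsk3a had adjusted p of 0.0535, 0.088 and 0.0945.

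In wild-type adults 1 of 22 passed, near the 4.47% of all genes. It was Ppp1cb, which rose at 4 C: 2228, 2580, 2071 and 1936 normalized counts at 4 C, against 1431, 1610, 1487 and 1541 at 22 C (0.53 ± 0.11, adjusted p = 0.039). The groups do not overlap, and the call was lost without any 1 of the 8 libraries (adjusted p = 0.057 to 0.124). The median fold change of the other pathway genes was -0.09 at 30 C, -0.08 in TrkA-flox Th-cre, -0.02 and -0.11 in Bcl6-flox Prx1-cre at P25 and in adults, and 0.19 in the adult cold.

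**Figure D4:**
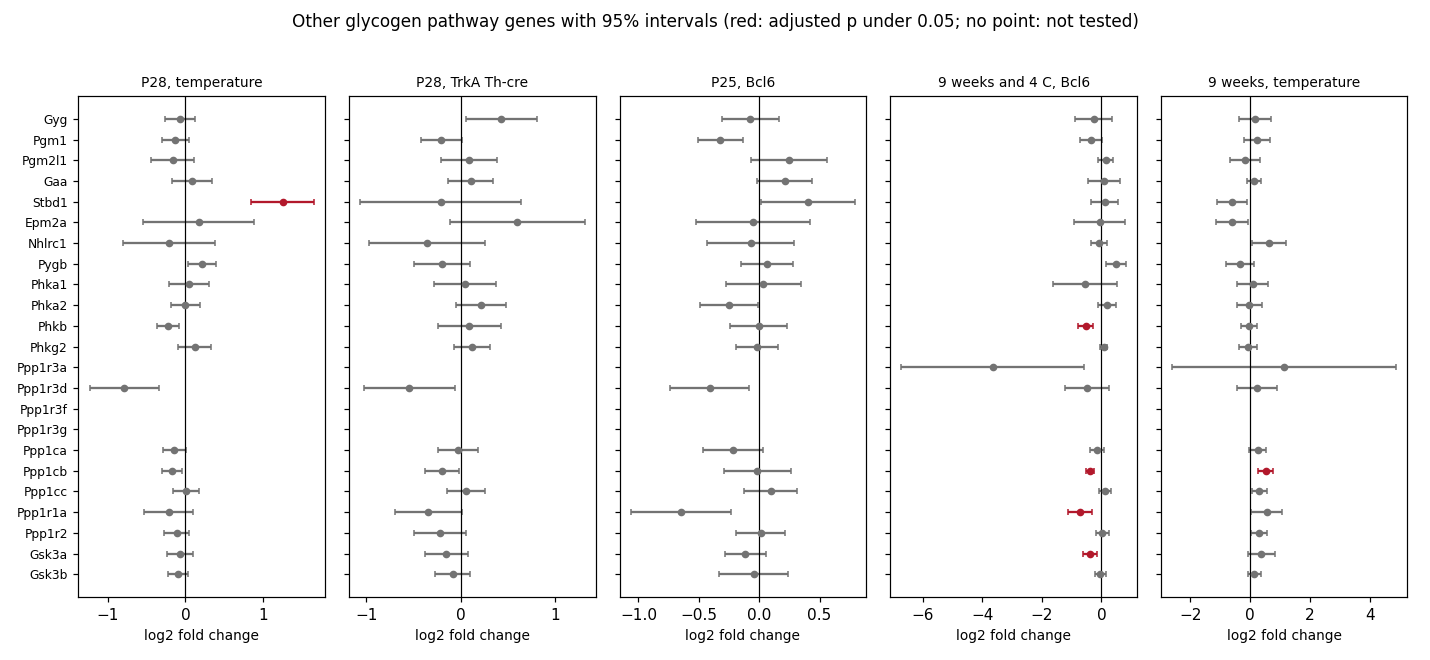
Log2 fold change (x axis, scale differs by panel) with 95% intervals of 23 of the other glycogen genes in the 5 comparisons, first-named group over the other; red marks adjusted p under 0.05, and a gene without a point was not tested. Stbd1 stands right of 0 at 30 C with 1.25, and Ppp1cb lies at -0.39 in the cold Bcl6 comparison and at 0.53 in the adult cold.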

How the data were processed

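The deposited tables hold signal values, gene counts normalized by the authors; kallisto, DESeq2 and mm10 are named, per the submitters' processing notes. Per the labels' protocols, a stranded kit was used; the sources used here give no versions, annotation or strand setting. The same 4 wild-type libraries occur in both tables of P28 samples, with values 1.13 to 1.14 times higher (median over genes) in the temperature table. Read depth is unknown: of the lowest values of a library, 30.6 to 83.5% were whole multiples of a common step (tolerance 0.02), so whole reads were not recovered.

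limma 3.58.1 in R 4.3.3, with its mean-variance trend, was fitted on log2(value + 1), for genes with 10 or more in a number of libraries no less than the size of the smaller group. Benjamini-Hochberg adjustment ran over every gene tested in the table, the threshold was 0.05, and the test was checked on simulated data. Fold changes on this scale understate those of low genes. The difference of Bcl6 effects between tables was tested on both fits' estimates and errors. P25 column names fit no single title, so those libraries are known by group only. High Xist means over 1000.

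The members, the 25 other pathway genes and the marker lists were chosen with earlier results of these data known. Named genes are the members, other pathway genes past the threshold (at most 6 by smallest p), the 5 genes closest to Gys2, Pygl and Pygm, and context genes. Alternatives were pseudocounts of 0.5 and 5, no filter, a filter of 50, upper quartile and quantile scaling, library weights, covariates for muscle score and Xist, a replicate block and each library left out. In no table did all same-numbered samples deviate together. Plots used Python 3.11.15 and matplotlib 3.10.9. Some items are not reported here.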

Additional observations from a re-analysis of the deposited data

Results flagged for a closer look

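Groups held 4, 7 or 8 libraries, and each of the 9 members was looked at in each of the 9 groups. By Dixon's test, 11 member values stood far from the rest of their group. The test flags about 1 in 20 such sets, of 1 member in 1 group, by chance. Pygm was flagged in 3 groups: 222.7 normalized counts in TrkA-flox Th-cre replicate 1 (next value 72.7), 2637 in a Prx1-cre library at P25 (next 831) and 28930 in floxed replicate 3 in the cold (next 1240). The last library was also flagged for Ugp2, at 13160 (next 5206), and for Phkg1, at 1460 (next 372), and it holds the highest muscle score. Phkg1 was flagged at 137.5 in replicate 4 at 30 C (next 111) and at 161.6 in replicate 1 at 22 C at P28 (next 110). Gys2 stood at 909.4 in a floxed library at P25 (next 435), and Ppp1r3e at 144.4 in a Prx1-cre library at P25 (next 106). In wild-type adults at 22 C, Pygl was low at 3155 in replicate 3 (next 4334), and Ppp1r3c was high at 854.4 in replicate 4 (next 458).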

How the results depend on the processing

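The falls of Phkg1 in the adult cold and of Gys2 at 30 C passed in each alternative run. So did those of Ppp1r3e in TrkA-flox Th-cre and of Ppp1cb in adult Bcl6-flox Prx1-cre. Ppp1r3e met the filter through the wild-type group alone, with 7.57 to 11.1 normalized counts in TrkA-flox Th-cre libraries. The other calls of members and pathway genes did not pass in each run. Members called at 30 C were 1 with no filter, upper quartile scaling, the muscle or Xist covariate or the replicate block, 3 with a filter of 50, quantile scaling or library weights, where Pygl joined, and 1 to 3 with a library left out; in TrkA-flox Th-cre 1 with the muscle covariate, and 2 to 3; in adult Bcl6-flox Prx1-cre 0 with quantile scaling or the replicate block, and 0 to 1; in the adult cold 2 with the muscle or Xist covariate or the block, where Gys2 joined, and 1 with any library left out; at P25 0 throughout. The difference of Bcl6 effects stayed at 0 genes in each limma alternative. Same-numbered samples were not paired by the rule, which needs every r over 0.1 (r of -0.66 to 0.77 over the tables; in the adult cold 0.77, 0.50 and 0.51 for replicates 2, 3 and 4 but -0.26 for replicate 1), and no label ties the numbers to animals. No paired analysis was possible at P25 because the letters and numbers of its columns match no sample title. The cause of the changes was not tested.

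Fold changes that turned direction were all of members that had not passed. With the muscle covariate they were -0.33 for Pygm and -0.17 for Ppp1r3c at 30 C; 0.17 for Gys1, 0.15 for Pygl and -0.38 for Pygm in TrkA-flox Th-cre; 0.25 for Pygm at P25; and 0.22, 0.083, 0.31 and 0.034 for Ugp2, Pygm, Phkg1 and Ppp1r3c in adult Bcl6-flox Prx1-cre. Phkg1 at 30 C was 0.052 with the Xist covariate, and with library weights Gys1 and Pygm in the adult cold were -0.0097 and 1.94. With a library left out, Phkg1 and Ppp1r3c at 30 C ran from -0.11 to 0.12 and from -0.018 to 0.32, Ugp2 in TrkA-flox Th-cre from -0.11 to 0.053, Gbe1 from -0.31 to 0.013 at P25 and from -0.034 to 0.27 in adult Bcl6-flox Prx1-cre, and Pygl and Pygm in the adult cold from -0.25 to 0.032 and from -1.78 to 0.52. Without replicate 3 at 30 C Pygm passed there (2.38, adjusted p = 0.0218), and without wild-type replicate 1 Phkg1 passed in TrkA-flox Th-cre (0.55, adjusted p = 0.041). Of all genes in the adult cold, 246 were higher and 296 lower, against 258 and 470 with upper quartile scaling. The muscle score itself differs between some groups, so a covariate for it also takes off part of the group difference. Low values, as of Ppp1r3e in TrkA-flox Th-cre, rest on few reads whose number is unknown.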
